A study of Mus musculus with 12 samples.

Results

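The genes described here are 10 mouse genes that encode receptors or receptor subunits for myeloid growth factors and cytokines: Csf3r, Csf2ra, Csf2rb, Csf2rb2, Csf1r, Kit, Flt3, Il3ra, Il6ra and Il4ra. They were chosen by name, and all 10 were found among the 23309 mouse genes of the expression table and passed the filter on low values (1 FPKM or more in 2 or more of 12 libraries), which kept 11516 genes. RNA-seq of polyA RNA was performed on myeloid progenitors of 2 genotypes on a C57BL/6 background, wild-type (WT) and HMGN1-OE, which carry a human HMGN1 transgene and were compared with wild-type littermates. All of the cells, controls included, were CD117+ bone marrow cells transduced with a retrovirus encoding ER-HoxB8, a HoxB8 fused to the estrogen receptor that holds myeloid progenitors undifferentiated while estradiol (E2) is present, and all were grown in IL-3. Cells were taken in E2 (0 h) and 36 h and 96 h after E2 was withdrawn, with 2 libraries for each of the 6 groups of genotype and time. The cells are therefore immortalized progenitors in culture, each genotype is set against the other at matched times, and nothing in the sources used here says whether a line was 1 clone. The study calls its RNA-seq libraries biological duplicates, and the sources used here do not say whether the duplicates came from separate mice or cultures, so the p-values below measure only the spread between these libraries.

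Growth factor receptors decide which signals a myeloid progenitor can hear. Kit and Flt3 are receptor tyrosine kinases of immature cells, for stem cell factor and Flt3 ligand. Csf1r, a tyrosine kinase too, binds M-CSF and is the hallmark receptor of the monocyte lineage. Csf3r, the G-CSF receptor, drives neutrophil production and is carried by mature neutrophils. The receptors for GM-CSF and IL-3 pair a ligand-binding alpha chain (Csf2ra, Il3ra) with a signalling beta chain (Csf2rb), and the mouse has a second beta chain, Csf2rb2, that serves IL-3 only. Il6ra and Il4ra bind IL-6 and IL-4 and signal through JAK kinases and STAT factors, as do the GM-CSF, IL-3 and G-CSF receptors.

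Promoter sequence is shown for the 3 receptors with an entry that were called higher at 96 h in HMGN1-OE cells, and for Flt3, which was called lower. RefSeq (GRCm38.p6) promoter windows were found for 8 of the 10 receptors, and the 250 bases before the start were read 5′ to 3′ on the gene's strand. Capitals mark GAGGAA or its reverse complement TTCCTC, the purine-rich core known as the PU box, after the myeloid factor PU.1. The windows are chr4:126024409-126024658 (+) for Csf3r, chr19:61228419-61228668 (-) for Csf2ra, chr3:89913197-89913446 (-) for Il6ra and chr5:147400490-147400739 (-) for Flt3.
Csf3r: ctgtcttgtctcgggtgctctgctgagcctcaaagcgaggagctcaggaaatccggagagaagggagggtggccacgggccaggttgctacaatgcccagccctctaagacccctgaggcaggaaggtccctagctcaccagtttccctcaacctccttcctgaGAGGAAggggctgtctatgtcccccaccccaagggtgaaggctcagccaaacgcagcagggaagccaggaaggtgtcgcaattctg
Csf2ra: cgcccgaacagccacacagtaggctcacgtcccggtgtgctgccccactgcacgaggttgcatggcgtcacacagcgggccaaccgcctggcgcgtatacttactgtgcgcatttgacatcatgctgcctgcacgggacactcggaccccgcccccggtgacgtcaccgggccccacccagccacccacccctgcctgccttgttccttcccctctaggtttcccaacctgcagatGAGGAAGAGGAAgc
Il6ra: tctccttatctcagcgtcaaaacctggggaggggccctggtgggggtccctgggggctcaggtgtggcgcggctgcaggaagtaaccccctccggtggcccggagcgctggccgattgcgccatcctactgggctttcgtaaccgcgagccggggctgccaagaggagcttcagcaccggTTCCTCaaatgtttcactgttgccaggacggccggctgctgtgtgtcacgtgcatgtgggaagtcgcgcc
Flt3: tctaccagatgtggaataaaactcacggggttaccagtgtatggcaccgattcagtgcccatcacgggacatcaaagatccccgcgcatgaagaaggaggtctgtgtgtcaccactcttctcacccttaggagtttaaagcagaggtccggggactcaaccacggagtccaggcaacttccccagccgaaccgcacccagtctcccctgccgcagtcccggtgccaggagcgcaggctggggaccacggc
The match lay 81 bases before the start in Csf3r, and the nearest of 2 matches lay 3 bases before it in Csf2ra. One match was found in the window of Il6ra, 1 in Csf2rb2 and 1 in Kit, and none in Flt3, Il3ra or Il4ra. The other motifs searched, on both strands, were TTGCNNAA, a C/EBP-type sequence, and TGNGGT, a RUNX-type sequence. TTGCNNAA was found in Il3ra alone of the 8 windows, and TGNGGT once each in Csf3r, Csf2rb2, Flt3, Il3ra and Il4ra and not in Csf2ra, Kit or Il6ra. Of all 32851 promoter windows of the same length, searched on both strands, 23.3% held GAGGAA, 9.56% TTGCNNAA and 40.1% TGNGGT, so a match describes the sequence and does not show a bound site.

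The chains Csf2rb and Csf2rb2 are near-copies, which bears on every value given for them. Their coding sequences, of 2688 and 2634 bases in GENCODE vM21, were identical at 95.2% of aligned pairs, and the longest identical coding run was 242 bases in the last of 14 exons of each gene. That run, at chr15:78348577-78348818 (+) in Csf2rb and chr15:78284630-78284871 (-) in Csf2rb2 (GRCm38), is shown because reads from it cannot be assigned to 1 gene.
Csf2rb and Csf2rb2, shared run: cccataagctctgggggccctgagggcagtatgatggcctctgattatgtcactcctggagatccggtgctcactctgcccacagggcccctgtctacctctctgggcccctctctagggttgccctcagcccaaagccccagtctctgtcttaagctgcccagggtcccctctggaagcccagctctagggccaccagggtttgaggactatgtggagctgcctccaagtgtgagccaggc
Of the windows of 36 bases along the Csf2rb transcript, 25.6% also occurred in that of Csf2rb2, and 18.9% of windows of 50 bases did. The split of FPKM between both genes is therefore uncertain. The library kit does not mark strand, and Csf1r overlaps Hmgxb3 on the opposite strand, while Flt3, Il3ra, Il6ra and Il4ra each overlap an annotated antisense gene, so reads in the overlaps could not be told apart.

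The values are FPKM that the authors scaled to ERCC synthetic RNAs added to a fixed number of cells, so they estimate RNA per cell. In whole-culture RNA, fewer cells of a type and less RNA per cell cannot be told apart. The summed FPKM ranged from 228955 to 1442570 between libraries, and the median tested gene fell by 1.75 (WT) and 1.28 (HMGN1-OE) on the log2(FPKM + 1) scale from 0 h to 96 h. Changes were therefore also computed after each library was centred on the median log2 value of its tested genes, and as the percentile of a receptor among the tested genes of its own library. Within a group the libraries are called a and b, which are names only. The WT libraries did not all sit with their partners. WT 36 h b and WT 0 h a correlated best with each other (Pearson r of log2 values 0.980 across genes), as did WT 36 h a and WT 0 h b (0.970), against 0.951 between the 36 h partners and 0.968 between the 0 h partners. WT 96 h a correlated best with HMGN1-OE 96 h a (0.977, against 0.965 with its partner). Every HMGN1-OE library correlated best with its partner (0.978 to 0.980). WT results that rest on 1 of these libraries are given with and without it. Whether the WT libraries of 0 h and 36 h match their labelled times was not tested, and every comparison that uses them, between WT times or between genotypes, carries that limit. Mouse Hmgn1 ranged from 85.7 to 200.6 FPKM over the 8 libraries at 0 h and 36 h and from 4.71 to 20.7 at 96 h. The 2 genotypes overlapped at every time, and the human transgene is not measured by that row.

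Markers of neutrophils and some markers of monocytes were present, and most lymphoid and dendritic cell markers were not. The summed FPKM of 15 neutrophil genes was 6090 to 16482 at 0 h and 67196 to 175397 at 96 h, and S100a8 and S100a9 made up much of the 96 h sums. Within the list, 9 genes were called higher and 6 lower in WT cells, against 4.31% and 77.2% of all genes, and 11 and 3 in HMGN1-OE cells, against 5.08% and 62.4%. Mpo, a primary granule gene, read 2107 and 4406 FPKM in WT cells at 0 h and 116 and 13.5 at 96 h, while Ltf, a secondary granule gene, read 15.9 and 7.19 and then 2040 and 1033. S100a9 was listed at 0.05 FPKM in WT 96 h a and at 26546 to 73461 in the other 96 h libraries, so a low value in 1 library can be a failed estimate, and S100a9 was 1 of the 6 genes called lower in WT cells. Of 10 monocyte or macrophage genes in the table, 4 stayed under 1 FPKM everywhere, Cx3cr1, Ms4a7 and C1qa among them, while Ly6c2 reached 307 to 1257 FPKM at 96 h and Cd68 read 9.88 to 31.1 over all libraries. Of 10 lymphoid genes 8 stayed under 1 FPKM, Cd3e among them, and of 8 dendritic cell genes 5 did, Cd209a and Xcr1 among them. Mast cell or basophil genes were detected in every library (sums of 154 to 3083 over 11 genes), and 6 eosinophil genes summed to 1038 and 2217 in WT and 247 and 525 in HMGN1-OE libraries at 96 h.

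Of the 10 receptors, 6 changed over 96 h in WT cells and 7 in HMGN1-OE cells, in both directions. In WT cells, 3 receptors were called higher at 96 h than at 0 h (Csf1r, Csf3r and Csf2ra) and 3 lower (Flt3, Kit and Il3ra) by limma at an adjusted p-value under 0.05, where 4.31% of all tested genes were called higher and 77.2% lower. In HMGN1-OE cells, 4 were called higher (Csf1r, Csf2ra, Il6ra and Csf3r) and 3 lower (Flt3, Il3ra and Csf2rb), against 5.08% and 62.4% of all genes. When the WT fit held only the libraries of 0 h and 96 h, the calls of Csf1r and Flt3 held and those of Csf3r, Csf2ra, Kit and Il3ra were lost (adjusted p = 0.114, 0.159, 0.0625 and 0.0809). The median change of the 10 receptors was 0.04 in both genotypes, beside -1.75 and -1.28 for all tested genes. After centring, 7 receptors were called higher and 1 lower in WT cells, against 36.5% and 33.8% of all genes, and 6 higher and 1 lower in HMGN1-OE cells, against 30.9% and 32.5%. The direction of Csf3r, Csf2ra, Csf1r, Il6ra and Flt3 was the same on both scales, as was that of Csf2rb2, whereas Kit, Il3ra, Csf2rb and Il4ra changed direction between them in at least 1 genotype.

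**Figure D1:**
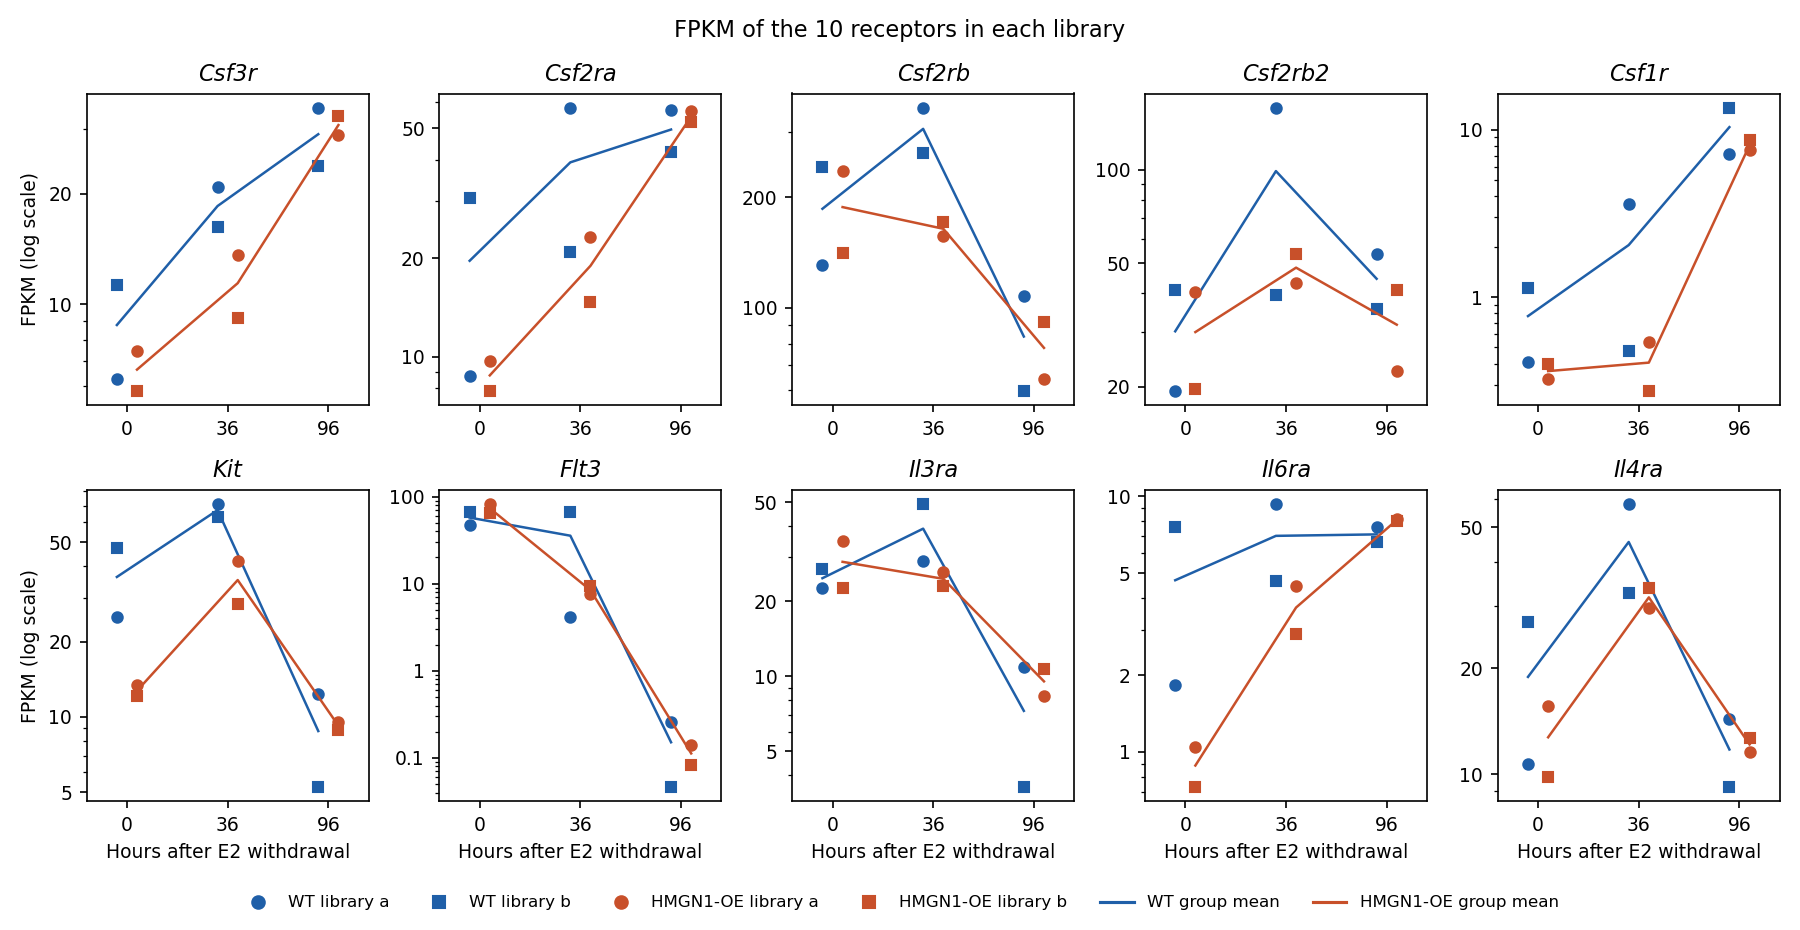
FPKM of each receptor (vertical axis, log scale) against hours after E2 withdrawal, 1 panel per receptor; points are libraries (circle a, square b) and lines join group means, WT in blue and HMGN1-OE in orange. Csf3r sat between 5.82 and 11.3 FPKM at 0 h and between 23.7 and 34.2 at 96 h, and Flt3 fell from 47.5 to 82.2 FPKM to at most 0.256.

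Csf3r, Csf2ra and Csf1r rose in both genotypes on both scales, and Il6ra rose in HMGN1-OE cells on the deposited scale and in both genotypes after centring. Csf3r read 6.29 and 11.3 FPKM in WT cells at 0 h, 20.8 and 16.2 at 36 h, and 34.2 and 23.7 at 96 h. In HMGN1-OE cells it read 7.48 and 5.82, then 13.6 and 9.19, then 28.9 and 32.4. In each genotype the levels at 3 times did not overlap. The 96 h mean was 3.30 times the 0 h mean in WT cells and 4.61 times in HMGN1-OE cells, and on the log2(FPKM + 1) scale the differences were 1.64 ± 0.50 (SE, n = 2 per group; limma, adjusted p = 0.00178) and 2.06 ± 0.50 (adjusted p = 0.000188). Its percentile among the tested genes of a library rose from 26.7 to 45.6 in the 8 earlier libraries to 84.6 to 91.7 at 96 h. These standard errors come from the trend of spread over expression in all genes, not from the 2 libraries of the gene.

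Csf2ra, the binding chain for GM-CSF, read 8.72 and 30.6 FPKM in WT cells at 0 h, 57.8 and 20.8 at 36 h, and 56.7 and 42.4 at 96 h. The HMGN1-OE series rose without overlap between times, from 9.66 and 7.85 to 23.3 and 14.7 and then to 56.3 and 52.3. The fitted difference from 0 h to 96 h was 1.51 ± 0.52 in WT cells (limma, adjusted p = 0.00566) and 2.51 ± 0.52 in HMGN1-OE cells (adjusted p = 1.23e-05). The WT call was lost without WT 0 h a, with a difference of 0.66 (adjusted p = 0.278), with no filter (adjusted p = 0.0964) and without moderation (adjusted p = 0.0837). The WT libraries of 0 h and of 36 h lay far apart. The higher library of each pair also held more summed RNA of monocyte, neutrophil and mast cell or basophil markers. WT 0 h b and WT 36 h a read 846 and 2179 FPKM of Ly6c2, against 92.3 and 275 in their partners, and 35.7 and 38.3 FPKM of Ccr2, against 3.60 and 7.32. The list of 10 monocyte or macrophage genes summed to 930 and 2262 in those libraries and to 111 and 314 in their partners, with C1qa at or below 0.191 FPKM throughout. Ly6c2 made up most of these sums, and Klf4 and Cx3cr1 went the other way at 36 h. Neutrophil genes summed to 16482 and 23662, against 10339 and 18328 in the partners. Mast cell or basophil genes summed to 817 and 3083, against 484 and 1024. The summed FPKM of all genes was 1268120 in WT 0 h b against 680258, and 1229590 in WT 36 h a against 1442570. The part of these markers in the receptor values was not tested.

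Csf1r began near the bottom of the range. In WT cells it read 0.408 and 1.13 FPKM at 0 h, 3.62 and 0.473 at 36 h, and 7.17 and 13.5 at 96 h. In HMGN1-OE cells it read 0.324 and 0.399, 0.536 and 0.275, and then 7.52 and 8.64. The rise was seen between 36 h and 96 h in every HMGN1-OE library, while 3.62 FPKM in WT 36 h a stood apart from the other 7 early libraries, which read 1.13 or less. The fitted differences were 2.65 ± 0.38 in WT cells (limma, adjusted p = 3.37e-11) and 2.74 ± 0.38 in HMGN1-OE cells (adjusted p = 1.23e-11). Even so, Csf1r stayed below Csf3r in every library, at a ratio of Csf3r to Csf1r of 1.76 to 4.77 at 96 h.

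Il6ra encodes the binding chain for IL-6. WT cells read 1.82 and 7.58 FPKM at 0 h, 9.34 and 4.68 at 36 h, and 7.57 and 6.64 at 96 h, and the WT groups overlapped. HMGN1-OE cells read 1.04 and 0.728, then 4.45 and 2.90, then 8.19 and 7.98, without overlap. The difference from 0 h to 96 h was 2.27 ± 0.43 in HMGN1-OE cells (limma, adjusted p = 1.12e-06) and 0.72 ± 0.43 in WT cells, which did not pass (adjusted p = 0.109). Without WT 0 h b the WT difference was 1.52, and without WT 0 h a it was -0.08. After centring Il6ra was called higher in both genotypes, at 2.56 in WT cells (adjusted p = 0.000481) and 3.59 in HMGN1-OE cells (adjusted p = 9.70e-05). Il6st, which encodes gp130, the signalling partner of Il6ra, read from 0.19 to 1.07 FPKM over all 12 libraries.

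Of the progenitor kinases, Flt3 was called lower at 96 h in both genotypes and Kit in WT cells. Flt3 read 47.5 and 67.3 FPKM in WT cells and 82.2 and 64.6 in HMGN1-OE cells at 0 h. By 96 h it read 0.256 and 0.0462 in WT cells and 0.141 and 0.0840 in HMGN1-OE cells, close to the most frequent value of a library, 0.097 to 0.105, which marks genes without signal. No linear fold is given against that level. The fitted differences were -5.65 ± 0.48 in WT and -6.05 ± 0.48 in HMGN1-OE cells (limma, adjusted p = 4.75e-30 and 2.40e-34), which understate the change because of the pseudocount of 1. Its percentile went from 74.4 to 85.2 at 0 h to 1.0 to 5.6 at 96 h.

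Kit, the receptor that also marks the sorted starting cells, read 25.0 and 47.6 FPKM in WT cells at 0 h, 71.1 and 63.3 at 36 h, and 12.3 and 5.23 at 96 h. HMGN1-OE cells read 13.4 and 12.1, then 42.2 and 28.3, then 9.58 and 8.85. In both genotypes the 36 h libraries were above the others. From 0 h to 96 h Kit fell by 1.97 ± 0.52 in WT cells (limma, adjusted p = 0.000285), whereas the difference in HMGN1-OE cells was -0.42 ± 0.52 (adjusted p = 0.457). After centring the differences were -0.12 in WT cells (adjusted p = 0.634) and 0.89 in HMGN1-OE cells (adjusted p = 0.00572), so the call and its direction rested on the scale. Kit held percentiles from 55.4 to 76.9 in all libraries other than HMGN1-OE 0 h, where it stood at 38.2 and 45.1.

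**Figure D2:**
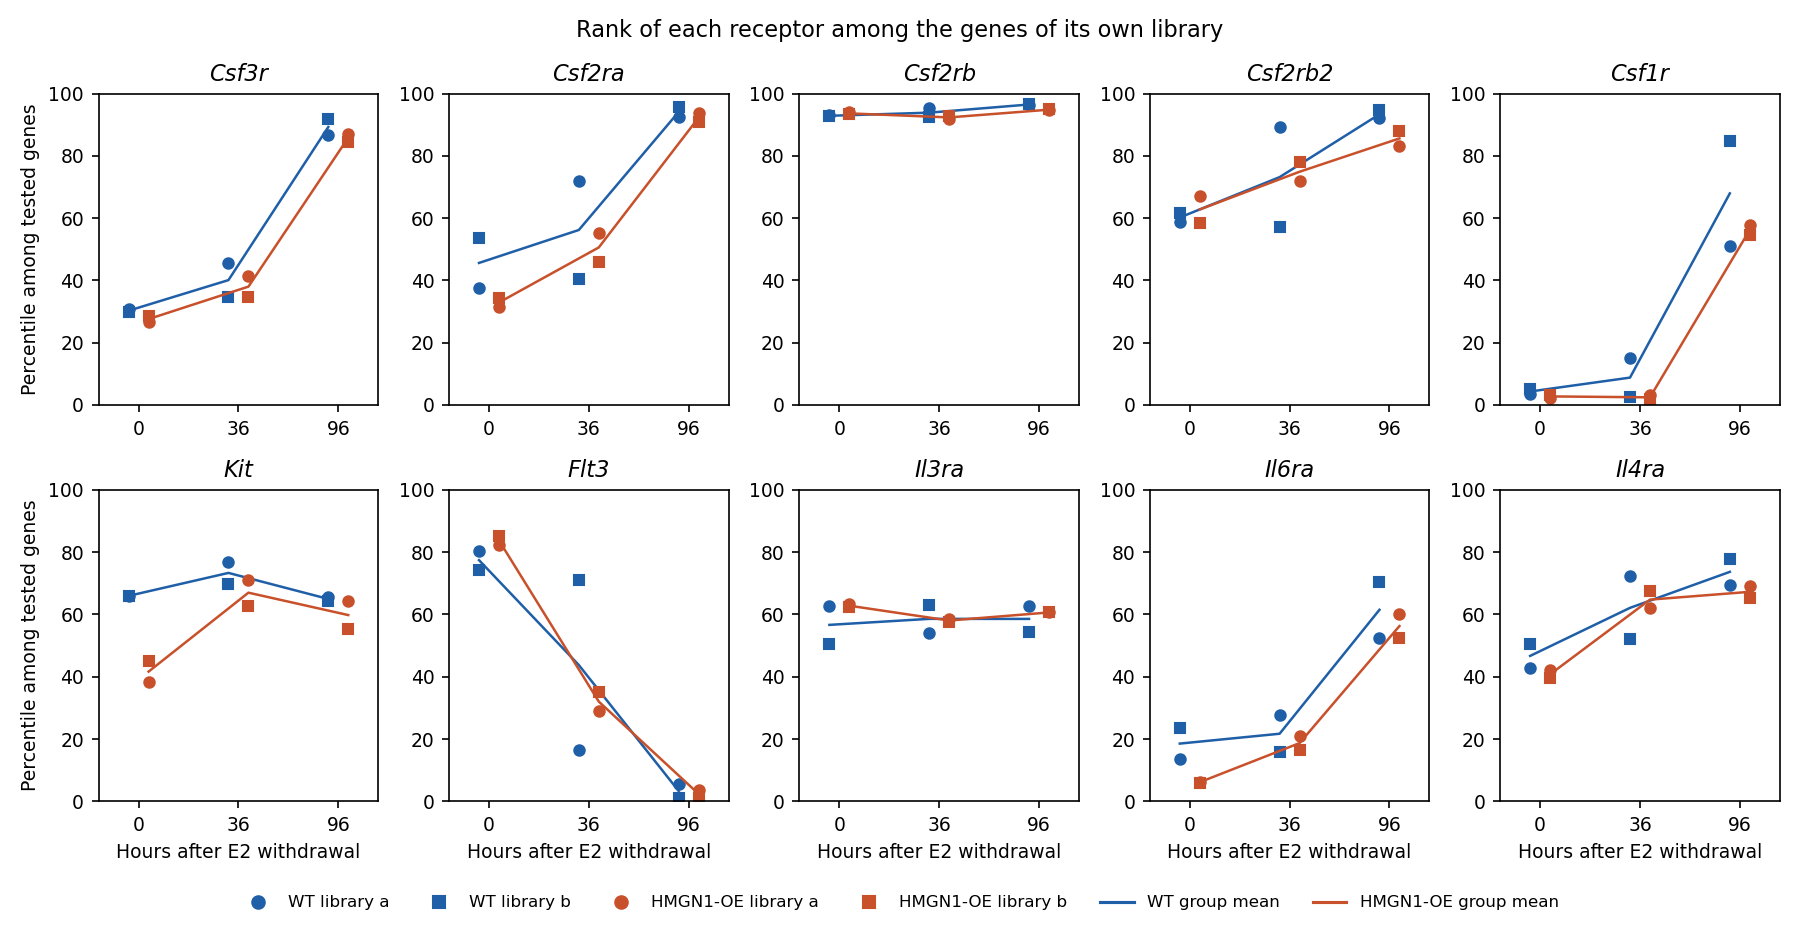
Percentile of each receptor among the 11516 tested genes of its own library (vertical axis) against hours after E2 withdrawal; points are libraries and lines join group means. Csf2rb stayed between 91.8 and 96.8 and Il3ra between 50.5 and 63.3, while Csf3r, Csf2ra, Csf1r and Il6ra climbed and Flt3 went to 5.6 or less.

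Il3ra, the binding chain for IL-3, the factor in the medium, declined in RNA per cell and held its rank. Il3ra read 22.5 and 27.0 FPKM in WT cells at 0 h, 29.1 and 49.1 at 36 h, and 10.9 and 3.59 at 96 h. HMGN1-OE cells read 34.9 and 22.7, 26.2 and 23.0, and then 8.35 and 10.7. All 4 libraries at 96 h lay below the 8 earlier ones. Il3ra fell by 1.79 ± 0.51 in WT cells (limma, adjusted p = 0.000821) and by 1.48 ± 0.51 in HMGN1-OE cells (adjusted p = 0.00799), and after centring the differences were 0.05 (adjusted p = 0.841) and -0.16 (adjusted p = 0.531). The WT call was lost without WT 96 h b (-1.10, adjusted p = 0.0620), and the HMGN1-OE call without OE 0 h a (-1.18, adjusted p = 0.134) or OE 96 h a (-1.31, adjusted p = 0.107) and with no filter (adjusted p = 0.0510).

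The beta chain Csf2rb was the most abundant of the 10 per length in every group. It read 131 and 241 FPKM in WT cells at 0 h, 349 and 263 at 36 h, and 108 and 59.6 at 96 h. HMGN1-OE cells read 235 and 141, 157 and 171, and then 64.1 and 91.8. The 96 h libraries lay below all others, yet the percentile stayed between 91.8 and 96.8. In WT cells the fitted difference from 0 h to 96 h was -1.14 ± 0.58 (limma, adjusted p = 0.0610). It passed as lower without WT 0 h a (-1.57, adjusted p = 0.0240), without WT 96 h a (-1.56, adjusted p = 0.00794) and without the trend (adjusted p = 0.0261), and as higher after centring (0.71, adjusted p = 0.0121) and quantile normalization (0.97, adjusted p = 0.00183). In HMGN1-OE cells it was -1.23 ± 0.58 (adjusted p = 0.0499) and 0.08 after centring (adjusted p = 0.751), and the call on the deposited scale did not hold without any 1 of its 4 libraries (differences of -1.60 to -0.87) or with the column digit as a block (adjusted p = 0.0808), nor with a pseudocount of 0.1, no filter, a mean of at least 5 FPKM, the robust option or no moderation (adjusted p = 0.0518 to 0.0723). Csf2rb2 read 19.4 and 41.0 FPKM in WT cells at 0 h, 158 and 39.6 at 36 h, and 53.5 and 35.6 at 96 h. HMGN1-OE cells read 40.4 and 19.7, 43.1 and 53.8, and then 22.5 and 41.0. Its differences from 0 h to 96 h, 0.61 ± 0.54 and 0.10 ± 0.54, did not pass (adjusted p = 0.285 and 0.871). After centring they were 2.46, which passed (adjusted p = 0.00462), and 1.41, which did not (adjusted p = 0.0593), and after quantile normalization both passed (2.69 and 1.499, adjusted p = 0.00291 and 0.0475). Its level of 158 FPKM in WT 36 h a stood apart, and in that library the 11 mast cell or basophil genes summed to 3083, against 154 to 1353 in the others. The part of these markers was not tested.

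Il4ra, the chain shared by the receptors for IL-4 and IL-13, was higher at 36 h than at the other times on the deposited scale, although no difference at 36 h was called. WT cells read 10.7 and 27.1 FPKM at 0 h, 58.2 and 32.7 at 36 h, and 14.3 and 9.20 at 96 h. HMGN1-OE cells read 15.7 and 9.82, 29.6 and 33.8, and then 11.6 and 12.7. The 36 h libraries lay above all others of their genotype, and the differences from 0 h to 96 h were -0.53 ± 0.51 and -0.03 ± 0.51 (limma, adjusted p = 0.322 and 0.959). Without WT 0 h a the WT difference was -1.17 and passed (adjusted p = 0.0453). After centring the differences with all libraries were 1.31 and 1.28 and passed (adjusted p = 0.00449 and 0.00582), while those at 36 h were 0.82 and 1.25 and did not. By percentile, WT cells stood at 72.2 and 52.0 at 36 h and at 69.6 and 77.8 at 96 h, so on this scale the 36 h libraries were not above those of 96 h.

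**Figure D3:**
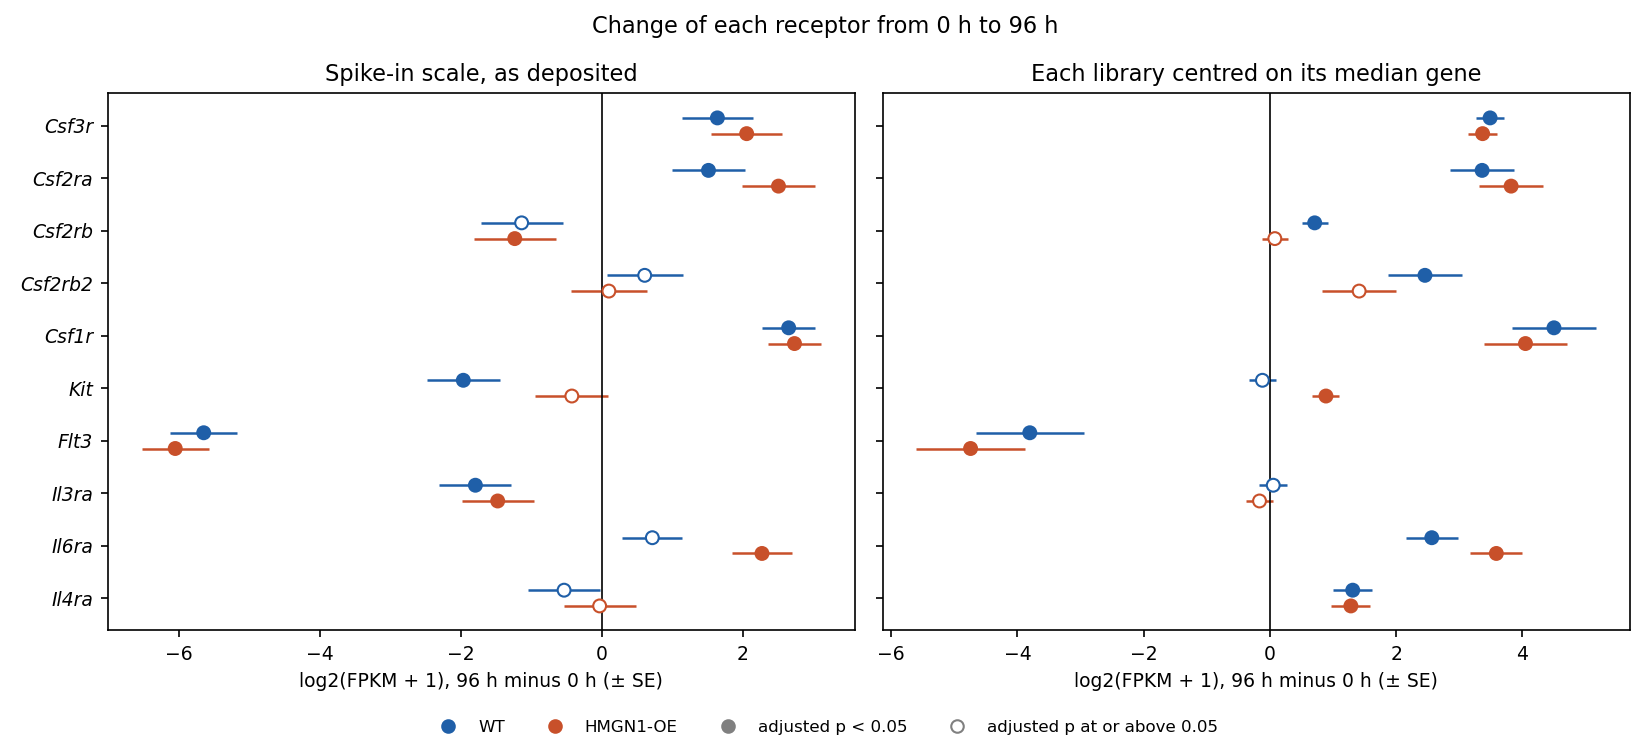
Difference in log2(FPKM + 1) from 0 h to 96 h (horizontal axis, with standard error) for each receptor, on the deposited spike-in scale (left) and after centring each library on its median gene (right); filled points passed limma at an adjusted p-value under 0.05. Csf1r, Csf3r and Csf2ra lie to the right of 0 and Flt3 to the left on both scales, while Il3ra moves from -1.79 to 0.05 in WT cells.

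By 36 h, 1 receptor, Flt3, passed the adjusted test, in HMGN1-OE cells. At 36 h, no receptor was called in WT cells by limma, where 0.617% of genes were called. Among the 10 receptors, 5 had an unadjusted p-value under 0.05 there, as did 378 of the 11516 tested genes. Flt3 was called in HMGN1-OE cells, where 1.8% of genes were called, with levels of 7.53 and 9.31 FPKM and a difference of -2.98 ± 0.48 (adjusted p = 8.56e-08). After centring that difference was -3.01 and did not pass (adjusted p = 0.165), nor did it after quantile normalization (adjusted p = 0.154), with no filter or without moderation. WT libraries at 36 h did not agree on Flt3, with 4.10 FPKM in library a and 67.0 in library b, and the WT difference of -1.63 ± 0.48 did not pass (adjusted p = 0.0926). Without library b the Flt3 difference was -3.50 (adjusted p = 7.66e-07), and without library a it was 0.24 (adjusted p = 0.739). Csf2rb2 stood at 1.46 with both libraries (adjusted p = 0.589), at 2.44 without b, where it passed (adjusted p = 0.0395), and at 0.47 without a (adjusted p = 0.590). Each 36 h library of WT cells correlated best with a 0 h library. In HMGN1-OE cells 6 receptors (Csf3r, Csf2ra, Csf2rb2, Kit, Il6ra and Il4ra) read higher at 36 h than at 0 h without overlap, as did 14.3% of all genes. In WT cells 5 did (Csf3r, Csf2rb, Kit, Il3ra and Il4ra), against 25.7% of all genes.

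Ratios of 2 receptors within a library cancel a factor common to all its genes, though not a correction that varies with expression level, as the loess normalization of these values can, and were described without a test. Csf3r stood at 0.237 to 0.560 of Kit in the 8 libraries at 0 h and 36 h and at 2.78 to 4.54 times Kit at 96 h. The beta chain Csf2rb exceeded Csf2ra by 7.88 to 24.3 times at 0 h, by 6.05 to 12.6 times at 36 h and by 1.14 to 1.90 times at 96 h. Against the other alpha chain, Il3ra, it stayed at 5.35 to 16.6 in all libraries. Csf2rb2 rose from 0.140 to 0.172 of Csf2rb at 0 h to 0.351 to 0.597 at 96 h, with 0.453 and 0.151 in the WT libraries at 36 h, and this ratio carries the uncertainty of their shared sequence. Over 6 ratios at 3 times, the genotypes overlapped in 12 of 18 comparisons and did not in 6, which are given here. Without any difference, 2 libraries part from 2 at a rate of 0.333, the smallest possible p of an exact permutation. The count is therefore no evidence of genotype differences in these ratios, and the ratios to Kit share the values of Kit. At 0 h the genotypes did not overlap in the ratio of Csf2rb to Csf2ra, 24.3 and 18.0 in HMGN1-OE against 15.02 and 7.88 in WT cells, in that of Flt3 to Kit, 6.16 and 5.35 in HMGN1-OE against 1.90 and 1.41 in WT cells, and in that of Csf3r to Kit, 0.560 and 0.482 against 0.252 and 0.237. At 36 h the ratio of Csf3r to Kit parted, 0.323 and 0.324 against 0.292 and 0.256. At 96 h they parted in the ratio of Csf2rb to Il3ra, 7.67 and 8.56 against 9.85 and 16.6, and in that of Csf2rb2 to Csf2rb, 0.351 and 0.446 against 0.497 and 0.597.

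**Figure D4:**
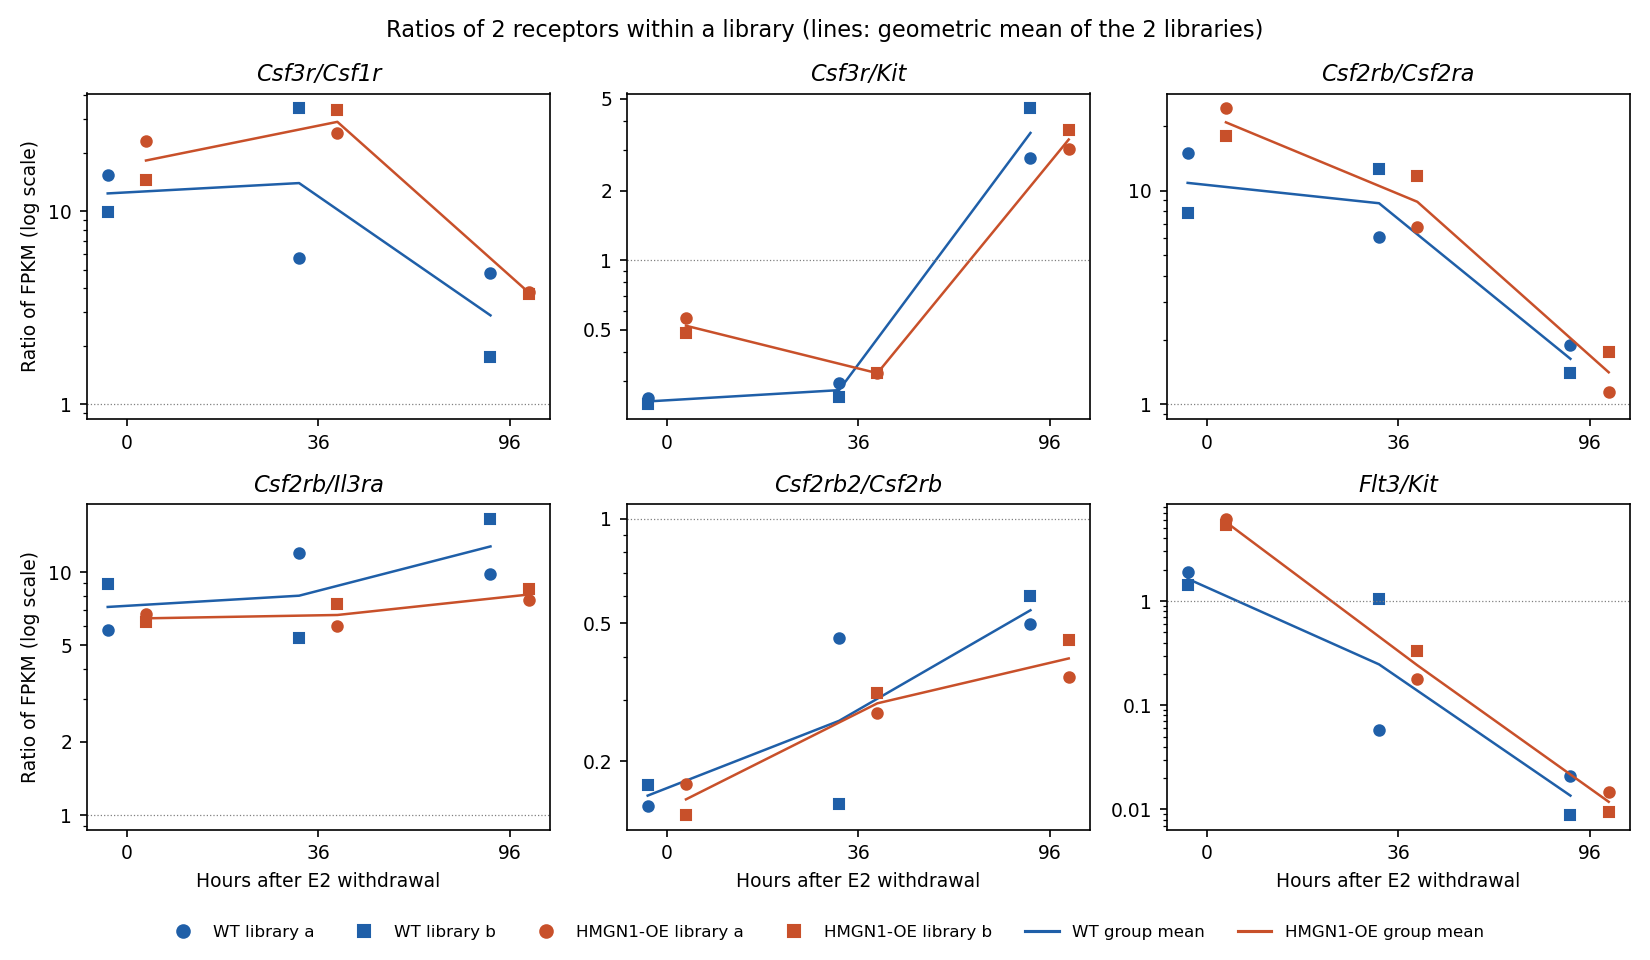
Ratios of FPKM of 2 receptors in the same library (vertical axis, log scale) against hours after E2 withdrawal; points are libraries, lines join the geometric means of 2 libraries, and the dotted line marks equal FPKM. The ratio of Csf3r to Kit crosses 1 between 36 h and 96 h in both genotypes, and the ratio of Csf2rb to Csf2ra declines to between 1.14 and 1.90.

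The comparison of genotypes asked whether the receptors differ with HMGN1 at matched times, and no receptor was called by limma at any of them. At 0 h, 1.36% of all genes were called. Kit, Il6ra and Csf1r read lower in both HMGN1-OE libraries than in both WT libraries, as did 4.67% of genes, and no receptor read higher without overlap, against 3.26% of genes. Kit at 13.4 and 12.1 against 25.0 and 47.6 FPKM gave a difference of -1.38 ± 0.52 (limma, unadjusted p = 0.00770, adjusted p = 0.352). Il6ra at 1.04 and 0.728 against 1.82 and 7.58 gave -1.39 ± 0.43 (unadjusted p = 0.00117, adjusted p = 0.0789), and was called lower with a pseudocount of 0.1. Without WT 0 h a the difference of Il6ra was -2.19 and passed (adjusted p = 0.000641), and without WT 0 h b it was -0.59 and did not (adjusted p = 0.901). The summed monocyte or macrophage genes were 45.1 and 28.8 FPKM in HMGN1-OE against 111 and 930 in WT libraries at 0 h, a gap that rested on Ly6c2 (10.9 and 8.43 against 92.3 and 846). Ccr2 (11.97 and 6.61 against 3.60 and 35.7) and Cd68 (17.0 and 9.88 against 11.8 and 31.1) overlapped between the genotypes. The part of these markers in the differences was not tested. Kit and Il6ra were the 2 receptors with an unadjusted p-value under 0.05 in limma at 0 h, as were 457 of the 11516 tested genes. An exact permutation of 2 libraries against 2 has a smallest possible p of 0.333.

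At 36 h, 1.26% of genes were called, and 5 receptors (Csf3r, Csf2rb, Kit, Il3ra and Il6ra) read lower in HMGN1-OE cells without overlap. The same held for 84.4% of all genes, and the median gene differed by -0.54. After centring, 9 receptors were lower and 1 higher, with a median of -0.23, and none was called. Flt3 gave -0.99 ± 0.48 (limma, adjusted p = 0.496), which became -2.86 without WT 36 h a (adjusted p = 0.000367) and 0.88 without WT 36 h b (adjusted p = 0.829), so its direction rested on which WT library was kept. Without WT 36 h b, Csf1r was called lower in HMGN1-OE cells (-1.72, adjusted p = 0.0113), and without WT 36 h a its difference was -0.07 (adjusted p = 0.891). At 36 h, 2 receptors had an unadjusted p-value under 0.05 in limma, as did 593 of the 11516 tested genes.

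At 96 h, 0.669% of genes were called and no receptor had an unadjusted p-value under 0.05 in limma, against 314 of the 11516 tested genes. Il6ra read 8.19 and 7.98 against 7.57 and 6.64 FPKM, the 1 receptor higher without overlap, as were 10.2% of genes, and none was lower without overlap, against 2.97% of genes. The HMGN1-OE means at 96 h ran from 0.712 (Csf2rb2) to 1.31 (Il3ra) times the WT means over the 10 receptors. On the log2(FPKM + 1) scale the median tested gene was 0.36 higher in HMGN1-OE cells. After centring, 9 receptors were lower and 1 higher, with a median of -0.32, so the likeness of the genotypes at 96 h rested on the scale. None was called after centring either, and 1 had an unadjusted p-value under 0.05 in limma. Whether the change from 0 h to 96 h differed between genotypes was tested by the interaction, which called 0.677% of genes and no receptor. Kit (1.54 ± 0.73, limma, adjusted p = 0.810) and Il6ra (1.56 ± 0.61, adjusted p = 0.662) were the 2 with an unadjusted p-value under 0.05, as were 334 of the 11516 tested genes. Both terms share the 0 h libraries with the comparison above. The median gene had an interaction of 0.51, and after centring Kit and Il6ra stood at 1.01 and 1.02. Without WT 0 h a the Il6ra interaction was 2.36 and passed (adjusted p = 0.0138), and without WT 0 h b it was 0.75 and did not.

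Other cytokine receptor subunits were called in both directions. Of 35 listed, 25 were tested and, from 0 h to 96 h in WT cells, 4 were called higher and 12 lower, with a median change of -0.80, where 4.31% of all genes were called higher and 77.2% lower. In HMGN1-OE cells 2 were higher and 9 lower, against 5.08% and 62.4% of all genes. After centring 15 and 14 were higher and 0 lower in WT and HMGN1-OE cells by limma, against 36.5% and 30.9% of all genes higher and 33.8% and 32.5% lower. Il1r2, the decoy receptor for IL-1, rose from 3.02 to 6.13 FPKM at 0 h to 43.6 to 89.2 at 96 h (3.92 in WT cells, adjusted p = 2.71e-14). Ifnar1 (-1.75), Il2rg (-1.59) and Tnfrsf1b (-1.57), subunits for type I interferon, IL-2 family cytokines and TNF, were called lower in WT cells (limma, adjusted p = 0.000594, 0.00550 and 0.00529), and their differences were 0.10, 0.25 and 0.28 after centring, where none passed. Between genotypes 2 subunits were called. Il11ra1, the binding chain for IL-11, read 18.4 and 9.83 FPKM in HMGN1-OE against 2.07 and 3.48 in WT cells at 0 h, 18.9 and 22.6 against 3.79 and 4.68 at 36 h, and 2.29 and 4.71 against 0.50 and 0.38 at 96 h (1.97, 2.06 and 1.59, limma, adjusted p = 0.000700, 0.000336 and 0.0388), without overlap at any time. The call of Il11ra1 was lost without OE 0 h a at 0 h (1.55, adjusted p = 0.336), without OE 36 h b at 36 h (1.93, adjusted p = 0.0793), and without any 1 of the 4 libraries at 96 h (1.19 to 1.99) or after centring at 96 h (1.19, adjusted p = 0.218). It was also lost at all 3 times with no filter (adjusted p = 0.663, 0.440 and 0.780) and without moderation, at 0 h and 36 h with only the groups compared (adjusted p = 0.175 and 0.0713), and at 96 h without the trend (adjusted p = 0.523), with a mean of at least 5 FPKM (adjusted p = 0.279) and with the column digit as a block (adjusted p = 0.124). Il1r1, the signalling receptor for IL-1, was called higher in HMGN1-OE cells at 0 h (2.45, adjusted p = 7.29e-07) with 18.5 and 31.7 against 11.5 and 0.71 FPKM, and in WT 36 h it read 0.26 and 17.2. After centring the Il1r1 difference was 2.58 and did not pass (adjusted p = 0.930), and without WT 0 h b it was 1.01 (adjusted p = 0.901). The Il1r1 call at 0 h was also lost after quantile normalization (adjusted p = 0.826), with only the groups compared (adjusted p = 0.0536), without the trend (adjusted p = 0.533), with no filter, with the robust option and without moderation.

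Among ligands, 5 of 11 were tested, and 3 (Il13, Il4 and Csf1) were called higher at 96 h in WT cells by 1.74, 1.59 and 1.54 (limma, adjusted p = 5.75e-07, 3.50e-06 and 0.000471). Il13 read 5.94 and 1.25 FPKM in WT cells at 96 h, and its call was lost in an alternative setting. Csf1, which encodes M-CSF, read 1.16 and 7.54 FPKM in WT cells at 0 h and 11.3 and 11.7 at 96 h, and its call was lost without WT 0 h a (0.55, adjusted p = 0.254), with no filter (adjusted p = 0.146), with only the groups compared (adjusted p = 0.0934) and without moderation (adjusted p = 0.109). In HMGN1-OE cells 3 ligands were called higher, and none was lower in either genotype, where 4.31% (WT) and 5.08% (HMGN1-OE) of all genes were called higher. After centring all 5 were higher in both genotypes, against 36.5% and 30.9% of all genes. Il3, Kitl, Csf2 and Csf3, which encode IL-3, stem cell factor, GM-CSF and G-CSF, stayed at or below 0.273 FPKM in every library.

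Downstream of the receptors, calls on the deposited scale are read against the 77.2% (WT) and 62.4% (HMGN1-OE) of all genes called lower at 96 h. Of 11 JAK and STAT genes, 5 were called lower in WT cells and 2 in HMGN1-OE cells and none higher, smaller shares than those of all genes. Stat5a, a main effector of IL-3 and GM-CSF, read 26.1 and 46.5 FPKM in WT cells at 0 h and 6.03 and 2.99 at 96 h (-2.76, limma, adjusted p = 4.05e-07) and stayed lower after centring (-0.91). Stat4 (-1.77), Jak3 (-1.76) and Stat5b (-1.46) were also called lower, with adjusted p-values of 0.000738, 0.000428 and 0.00675, and differed by 0.07, 0.09 and 0.38 after centring, where Stat5b passed as higher (adjusted p = 0.00209). After centring 8 JAK and STAT genes were called higher and 1 lower in WT cells, and 9 and 1 in HMGN1-OE cells, where 36.5% and 30.9% of all genes were called higher and 33.8% and 32.5% lower.

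Of 18 proximal signalling genes tested, 3 were called higher and 10 lower in WT cells, and 3 and 6 in HMGN1-OE cells. Of all genes, 4.31% (WT) and 5.08% (HMGN1-OE) were called higher and 77.2% and 62.4% lower. Fgr, a Src family kinase, rose from 0.281 to 0.555 FPKM in WT and HMGN1-OE cells at 0 h to 16.8 to 31.1 at 96 h (4.08 in WT cells, limma, adjusted p = 2.28e-23), and Pik3r5, a regulatory subunit of PI3K gamma, rose by 2.43 (adjusted p = 1.15e-10). Pik3r1 (-2.69, limma, adjusted p = 1.17e-06) and the adaptor Gab1 (-2.66, adjusted p = 2.45e-09) were called lower. Pik3r1 stayed called lower after centring, and Gab1 did not. After centring 12 were called higher and 1 lower in WT cells, and 11 and 2 in HMGN1-OE cells, against 36.5% and 30.9% of all genes higher and 33.8% and 32.5% lower. Of 22 feedback and negative regulators, 14 were called lower in WT and 11 in HMGN1-OE cells and none higher, with medians of -1.55 and -1.08, near those of all genes. Socs2, a feedback inhibitor of STAT5 signalling, had the largest called change (-3.60 in WT cells, limma, adjusted p = 2.52e-10), with 63.2 and 96.3 FPKM in WT cells at 0 h against 9.61 and 3.03 at 96 h. Spred1 (-2.80), Spry2 (-2.60) and Socs6 (-2.28) followed (limma, adjusted p = 3.47e-08, 8.11e-08 and 1.47e-05). Socs2, Spred1 and Spry2 stayed called lower in WT cells after centring, and Socs6 did not. After centring 11 were higher and 3 lower in WT cells, and 11 and 4 in HMGN1-OE cells, against the same shares of all genes.

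Of 11 growth factor target genes tested, 1 was called higher and 5 lower in WT cells, and 3 and 4 in HMGN1-OE cells; after centring 6 were higher and 2 lower in each. Of all genes, 4.31% (WT) and 5.08% (HMGN1-OE) were called higher and 77.2% and 62.4% lower on the deposited scale. The shares after centring were 36.5% and 30.9% higher and 33.8% and 32.5% lower. Myc fell from 122 to 241 FPKM at 0 h to 3.90 to 19.7 at 96 h (-4.42 in WT cells, limma, adjusted p = 1.30e-13), and Ccnd2, which encodes cyclin D2, by 3.20 on the log2 scale (adjusted p = 4.42e-09), and both stayed lower after centring (-2.58 and -1.36). Fos rose by 1.94 (limma, adjusted p = 8.22e-05) and Pim1 fell by 1.78 (adjusted p = 0.00391), with 0.07 for Pim1 after centring. The Fos call was lost in an alternative setting. Of 3 genes for the shedding of receptors from the surface, Adam17 (-2.44) and Adam10 (-1.78) were called lower in WT cells (limma, adjusted p = 1.53e-05 and 0.00222), with -0.59 and 0.07 after centring. No JAK and STAT, proximal, feedback, target, ligand or shedding gene was called between genotypes by limma on the deposited scale at any time.

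Likeness of pattern was described by Pearson's r of centred log2 values over the 12 libraries, which share 3 times and 2 genotypes, so that high values are common. The genes closest to Csf1r were Trem2 (0.998), Sytl3 (0.996) and Lpl (0.994). C130026I21Rik, Klf13 and Stim1 (each 0.996) were closest to Csf3r, and Aatk (0.997), Ctns (0.995) and Ap4b1 (0.994) to Csf2ra. S100a11 (0.992), Chmp2b (0.992) and Cebpb (0.990) were closest to Il6ra. Flt3 was followed by Extl3 (0.988), Ptgir (0.988) and Pan3 (0.986). The 3 genes nearest to Csf2rb2 were Cd200r3 (0.979), Cd200r4 (0.967) and Cdkn1a (0.955), and those nearest to Il4ra were Myl12b (0.973), Tnfrsf26 (0.969) and Dtx4 (0.963). Kit (Ndrg3, Tlr4 and Thra, 0.934 to 0.942), Csf2rb (Ndst2, Furin and P2ry14, 0.905 to 0.926) and Il3ra (Fam64a, Vamp8 and Spin1, 0.836 to 0.864) had less close neighbours. Among the 10 receptors themselves, the closest pair was Csf2ra and Il6ra (0.989) and the most opposed Flt3 and Il4ra (-0.917).

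The order of the receptors by mean FPKM changed with time. At 0 h Csf2rb led Flt3 in both genotypes, and Csf1r was last. At 96 h the order in both genotypes was led by Csf2rb, Csf2ra, Csf2rb2 and Csf3r, followed by Il4ra, with Flt3 last. Among these leaders, the libraries of Csf2ra and Csf2rb2 overlapped in WT cells and those of Csf2rb2 and Csf3r overlapped in HMGN1-OE cells. The middle ranks, Csf1r, Kit, Il3ra and Il6ra at 96 h, had means of 7.10 to 10.3 FPKM in WT cells and overlapped from neighbour to neighbour.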

How the data were processed

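RNA-seq was deposited as 1 table of FPKM for 12 libraries, 2 for each genotype and time. The authors' methods describe RNA from a fixed number of cells with ERCC RNAs added, TruSeq libraries, Bowtie alignment, RPKM and loess normalization to the ERCC RNAs; the submitters' processing notes name HISAT, Cufflinks 2.0.0 and mm9. Read depth is unknown, so no counting error is given. The labels' genotype and time set the groups. Here log2(FPKM + 1) was fitted in limma 3.58.1 (R 4.3.3; trend, 6 group means, all 12 libraries) for genes with at least 1 FPKM in 2 libraries, two-sided, with Benjamini-Hochberg adjustment over 11516 genes and calls under 0.05. The prior degrees of freedom were infinite, so each gene's variance was that of the trend. The fit was also run on simulated data with independent noise of equal spread for every gene, which cannot vouch for the calls made here. Alternatives were a pseudocount of 0.1, no filter or a mean of at least 5 FPKM, median centring, quantile normalization, only the groups compared, limma without trend, robust or without moderation, and leaving out each library. A block by the digit of the column names was added after seeing the data. The receptors and gene lists were chosen with earlier results of these data known. All 10 receptors were named. Of each list, up to 4 genes with the largest change called in WT cells from 0 h to 96 h and any called between genotypes were named, as were the 3 genes most alike to each receptor. Other genes are given as values chosen after they were seen.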

Additional observations from a re-analysis of the deposited data

Results flagged for a closer look

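Il6ra stood out because the difference between genotypes ran in opposite directions at different times with no overlap of libraries. On the log2(FPKM + 1) scale HMGN1-OE minus WT was -1.39 at 0 h, -0.73 at 36 h and 0.17 at 96 h. The change of this difference from 0 h to 96 h was tested by the interaction (1.56, limma, adjusted p = 0.662; 2.36 without WT 0 h a and 0.75 without WT 0 h b), and that from 36 h to 96 h was not tested. For the median tested gene HMGN1-OE minus WT was -0.12, -0.54 and 0.36 at the same times. At 36 h 84.4% of all genes read lower in HMGN1-OE cells without overlap, and at 96 h 10.2% read higher. After centring, the Il6ra values were -1.26 at 0 h, -0.15 at 36 h and -0.23 at 96 h, so no change of direction remained. Il1r1, which is not among the 10 receptors, was called in the same interaction at -2.60 (limma, adjusted p = 0.00200). Its WT libraries read 11.5 and 0.71 FPKM at 0 h, the interaction was -1.16 and did not pass without WT 0 h b, and after centring it was -3.13 and did not pass (adjusted p = 0.522). It also did not pass without OE 0 h b, OE 96 h b or WT 96 h a (-2.23, -2.46 and -2.20). The same held for Il1r1 after quantile normalization (adjusted p = 0.415), with a mean of at least 5 FPKM (adjusted p = 0.107), with no filter, without the trend, with the robust option and without moderation.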

How the results depend on the processing

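Over the differences of all 10 receptors in all comparisons, direction changed in 2 of 14 that were called and 15 of 66 that were not after centring, in 2 of 14 and 16 of 66 after quantile normalization, and in 0 of 56 and 40 of 304 when 1 library was left out. Centring each library on its median gene and quantile normalization turned these differences in log2(FPKM + 1) from 0 h to 96 h in WT cells: Csf2rb to 0.71 and 0.97, Il3ra to 0.053 and 0.095, Il4ra to 1.31 and 1.41, Adam10 to 0.068 and 0.28, Ifnar1 to 0.098 and 0.096, Il2rg to 0.25 and 0.42, Pim1 to 0.068 and 0.34, Stat4 to 0.075 and 0.098, Stat5b to 0.38 and 0.49, and Tnfrsf1b to 0.28 and 0.44, while Jak3 turned to 0.087 after centring only. In HMGN1-OE cells they turned Csf2rb to 0.078 and 0.28, Kit to 0.89 and 0.91 and Il4ra to 1.28 and 1.33, and the genotype difference of Il6ra at 96 h to -0.23 and -0.27. Both remove the fall of the median gene by construction. Leaving out 1 library at a time gave ranges that cross 0 for Flt3 in WT cells at 36 h (-3.50 to 0.24) and between genotypes at 36 h (-2.86 to 0.88), for Il6ra (-0.085 to 1.52) and Il4ra (-1.17 to 0.10) in WT cells at 96 h, and for Csf2rb2 (-0.40 to 0.60) and Il4ra (-0.34 to 0.28) in HMGN1-OE cells at 96 h. The number of receptors called then ranged from 0 to 2 in WT cells at 36 h, and from 0 to 1 between genotypes at 0 h, at 36 h and in the interaction. With only the groups compared, 2 receptors were called in WT cells at 96 h and 4 in HMGN1-OE cells at 36 h. At 36 h in HMGN1-OE cells, 2 were called with a pseudocount of 0.1 and 0 without a filter, after centring, after quantile normalization and without moderation. Between genotypes at 0 h, a pseudocount of 0.1 called 1, Il6ra. For these counts the cause was not tested. With 1 FPKM added, mean log2 ratios moved to 2.48, 3.13 and 1.80 for Csf3r to Csf1r in HMGN1-OE cells at 0, 36 and 96 h and 2.45 in WT cells at 0 h, to -1.54 and -1.91 for Csf3r to Kit (HMGN1-OE 36 h and WT 0 h), to 2.89 for Csf2rb to Il3ra in HMGN1-OE cells at 96 h, and to -3.20 and -2.99 for Flt3 to Kit at 96 h. The columns carry digits (0 or 1) that differ from the replicate numbers of the sample titles, so a replicate block by column digit was added after seeing the data. Libraries of the same digit did not deviate together: of 15 pairs of groups 3 had a correlation over 0.1 (range -0.37 to 0.18). With this replicate block the receptors called numbered 6 of 10 in WT cells and 6 in HMGN1-OE cells at 96 h, 1 in HMGN1-OE cells at 36 h and 0 in the other comparisons, and of the differences named the calls of Csf2rb in HMGN1-OE cells (-1.23, adjusted p = 0.0808) and Il11ra1 at 96 h were lost.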
